A study of Mus musculus with 96 samples.

Results

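SOX17-antibody ChIP-seq from mouse ES cells that had not yet received doxycycline was set against SOX2 ChIP-seq from the same state over all 42403 of the 42403 deposited GATA6 binding regions. The regions were kept without selection on either antibody, and input chromatin and a GATA6-antibody library of the same untreated cells gave 2 backgrounds. The cells were KH2 ES cells (C57BL/6 x 129/Sv) carrying a doxycycline-inducible Gata6 cassette, grown with LIF on mitomycin-inactivated feeder fibroblasts. All ES cell groups share this cassette, and the study's methods name several selected clones without the labels saying which library came from which. The untreated state (treatment none, called d0) has 2 labelled libraries for the SOX17 antibody, 3 for SOX2, 2 for input and 1 for the GATA6 antibody, of 96 samples in the series, and the later samples received 1 µg/mL doxycycline. XEN cells, an extraembryonic endoderm line, were grown without LIF. The question was which motif and accessibility classes hold SOX17-antibody signal before Gata6 is switched on. Sox17 expression in these cells was not analysed here.

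SOX17 and SOX2 belong to the same family of transcription factors and bind DNA through an HMG box that recognises a short ATTGT-like core. SOX2 is a pluripotency factor of ES cells and binds together with OCT4 on a composite OCT:SOX element, in which a SOX site lies directly beside an octamer site. SOX17 is a regulator of primitive endoderm, the lineage that Gata6 drives ES cells towards. An antibody signal at a region is the amount of chromatin recovered there and does not by itself identify the protein that was recovered.

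The columns named d0 turned out to average libraries of several times. Where a column is the mean of few libraries, its values are whole multiples of what 1 read is worth in each library, and these steps did not match untreated libraries alone. For the SOX17 antibody, the d0 value equalled the mean of 5 libraries, 2 untreated, 2 of 8 h and 1 of 16 h of doxycycline, so that 60% of the libraries in it were treated. For SOX2 and input it equalled the mean of 6, of which 66.7% were treated. Subtracting the 8 h and 16 h values left SOX17-antibody values that were whole reads in 100% of regions within a tolerance of 0.01, against 2.55% before subtraction. Assuming 1 untreated library instead of 2 gave values at or below 0 in 594 regions for the SOX17 antibody and 8580 for SOX2. Assuming 3 gave 0 such regions for either antibody, so this check cannot tell 2 from 3. For SOX2 only the read steps told them apart, and they fitted 2 untreated libraries and not 3. For the SOX17 antibody, equal depths were tried for 2 untreated libraries and not for 3, so the number 2 there rests on the labels as well. The GATA6-antibody column was a single library of 6.12 M reads (M, a factor of 10 to the power 6) and held no such mixture.

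The values below are those of the untreated libraries recovered in this way, in reads scaled to library size (RPM), and the averaged d0 values are given beside the main counts. The recovery was chosen after the data had been seen. The SOX17-antibody values held a single read step, which is that of 2 libraries of 20.4 M reads each if the 2 labelled libraries entered the mean. Libraries of equal depth and parts of 1 pooled library cannot be told apart in this way, so no spread between replicates can be given. The SOX2 libraries, called A and B here, held 22.4 and 16.9 M reads, and the input libraries A and B held 26.5 and 10.2 M reads. The labels list 3 SOX2 libraries, and the values held the steps of 2. At the median region the SOX17 antibody rested on 20 reads. No test between groups was possible on these values, regions are not replicates, and all differences below are descriptions of these libraries.

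The sequence classes that the results turn on are shown first. For the OCT:SOX element the best match of each region was 15 bases long, and in the 2834 regions with a high score the most frequent base at each place read ctttgttatgcaaat. The SOX17 motif was 9 bases long, and its high-score class of 8324 regions read cccattgtc, with attgt on one strand or the other in 100% of the matches. The 3 matches below stand for the OCT:SOX element in regions with strong SOX17-antibody signal before induction. They lie in the mm10 regions nearest Gclm (intron of Abca4, chr3:122145516-122145540, minus strand), Kat2b (intergenic, chr17:53561876-53561900, minus strand) and Pou5f1 (intergenic, upstream, chr17:35504044-35504068, minus strand). Capitals mark the motif match, and the bases come from the RefSeq copy of GRCm38.
Gclm: ggagtCATTGTCATGCTGATggaag
Kat2b: ctgtgCATTGTAATGCTAAAttctg
Pou5f1: tgcacCTTTGTTATGCATCTgccgt

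The next 3 are high-score SOX17 motifs beside primitive endoderm genes, shown because these regions were near input for the SOX17 antibody before induction and high at day 4. They lie upstream of Sox17 (chr1:4537013-4537037, minus strand), Pdgfra (chr5:75143705-75143729, plus strand) and Srgn (chr10:62528595-62528619, plus strand), and the capitals again mark the match.
Sox17: ggctctctGACATTGTCtccaaaac
Pdgfra: gtccctctCTCATTGTCagtctgtg
Srgn: gggtccgtCTCATTGTCaggcttgg

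The SOX17 antibody recovered a wide range of signal from untreated cells. Its median was 0.538 RPM per region, with 5% of regions below 0.147 and 5% above 3.16 RPM and a highest value of 17.4 RPM. SOX2 had a median of 0.519 RPM, a 95th percentile of 6.87 and a highest value of 36.3 RPM, and input had a median of 0.397 RPM. The SOX17-antibody profile was thus close to SOX2 at the typical region and reached lower levels at the strongest ones. As log2 ratio to input (0.1 RPM added to both sides), the median was 0.35 for the SOX17 antibody, 0.30 for SOX2 and 0.10 for the GATA6 antibody.

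Regions at least 2-fold over input numbered 9560 for the SOX17 antibody, 22.5% of all regions. They numbered 11737 for SOX2 (27.7%) and 5483 for the GATA6 antibody (12.9%), the background set before Gata6 was induced. In the averaged d0 columns the counts were 5151 for the SOX17 antibody (12.1%), 16056 for SOX2 (37.9%) and 2583 for the GATA6 antibody (6.09%). The averaged columns thus held fewer SOX17-antibody regions and more SOX2 regions. Their input was averaged too. The GATA6-antibody column is the same in both sources, so its lower count there came with the change of input alone. How much of the SOX17-antibody change went with the input and how much with the treated antibody libraries was not tested. The averaged and untreated SOX17-antibody sets shared 4722 regions, which is 91.7% of the averaged set and 49.4% of the untreated set.

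SOX17-antibody signal followed SOX2 over regions. Of the 9560 SOX17-antibody regions, 7847 also passed for SOX2, which is 82.1% of the SOX17-antibody set and 66.9% of the SOX2 set. In the averaged columns 5109 regions passed for both, 99.2% of the SOX17-antibody set and 31.8% of the SOX2 set. The overlap was not particular to SOX2. Of the 9560 untreated SOX17-antibody regions, 8155 (85.3%) passed for OCT4 and 1863 (19.5%) for the GATA6 antibody, against 30.2% and 12.9% of all regions. Of the 1713 that did not pass for SOX2, 864 passed for OCT4. The pairs share their input, so the ratios were also set against different input libraries. Sorted into deciles by SOX2 over input B, the median SOX17-antibody signal over input A went from 0.03 in the lowest decile to 0.34 in decile 5, 1.17 in decile 9 and 1.81 in the highest decile. The GATA6 antibody over input A went from 0.09 to 0.31 across the same deciles. In the highest SOX2 decile the SOX17 antibody reached 2.05 in accessible, 1.76 in moderately accessible and 1.43 in closed regions, and 1.93 with a high-score OCT:SOX motif against 1.56 with none.

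**Figure D1:**
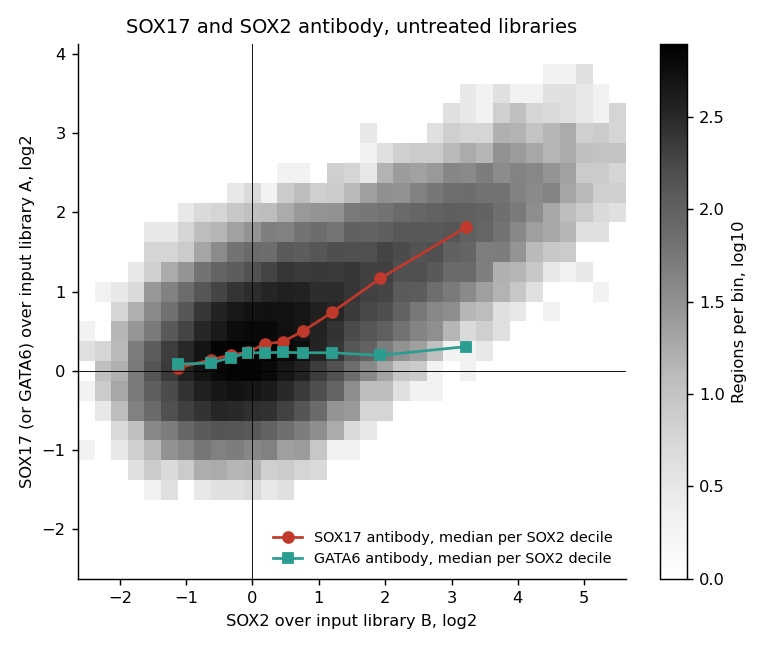
Density of the 42403 regions by SOX2 over input library B (horizontal) and SOX17 antibody over input library A (vertical), both as log2 ratios of untreated libraries; the lines join the medians of SOX2 deciles for the SOX17 antibody and the GATA6 antibody. The SOX17-antibody medians climb from 0.03 to 1.81 and the GATA6-antibody medians stay between 0.09 and 0.31.

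As a description over regions, which share libraries, width and base composition, the Spearman correlation of SOX17-antibody RPM was 0.89 with OCT4, 0.88 with SOX2, 0.85 with ESRRB, 0.71 with input and 0.53 with the GATA6 antibody. Region width alone gave 0.72. Per kb of width the order was SOX2 0.82, OCT4 0.80, ESRRB 0.72, input 0.42 and GATA6 antibody 0.19. The pluripotency factors thus stood above both backgrounds on either scale. The GATA6-antibody library was shallow, with 6.12 M reads, 0.163 RPM for 1 read and a median of 0.490 RPM. The part of counting noise in its low correlations was not tested. Between ratios that share no library, SOX17 antibody over input A against SOX2 over input B gave 0.58 in all regions, 0.85 in accessible, 0.70 in moderately accessible and 0.35 in closed regions, while the GATA6 antibody over input B gave 0.05. The swapped pairing, SOX17 antibody over input B against SOX2 over input A, gave 0.47 in all regions.

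By accessibility in untreated cells, the SOX17 antibody was lowest in closed chromatin, and its spread was wide in accessible chromatin. The median log2 ratio was 0.81 in the 3152 accessible regions (middle 50% of regions -0.23 to 1.72), 0.67 in the 13248 moderately accessible regions (0.10 to 1.33) and 0.22 in the 26003 closed regions (-0.18 to 0.66). The share of regions past 2-fold was 46.0%, 36.4% and 12.6%, against 22.5% in all regions. SOX2 had medians of 1.88, 1.04 and 0.02 in the same order, and the GATA6 antibody ran the other way with -0.42, -0.07 and 0.23. In closed regions the ratio of the SOX17 antibody was thus like that of the GATA6 antibody, whose factor was not yet induced. With the GATA6 antibody in place of input, accessible regions stood 1.22 above closed ones. The deposited values hold 1 added read per library, and the GATA6-antibody library was shallow. Its lowest value was 0.163 RPM and its median in closed regions 0.327 RPM. The lowest values were 0.049 RPM for the SOX17 antibody and 0.068 RPM for input. The part of the added read in both comparisons was not tested, so equal recovery in closed regions is not read from them. The size of the accessible minus closed contrast also depended on the input, at 0.92 over input A and 0.34 over input B. Over input A the accessible and moderately accessible medians were 1.19 and 0.84, and over input B they were level at 0.58 and 0.59. The log2 ratio of input A to input B was itself -0.63 in accessible and -0.04 in closed regions. In the averaged columns the difference was 0.71.

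SOX17-antibody signal was graded by the OCT:SOX score. The median SOX17-antibody ratio was 1.23 in regions with a high-score match, 0.76 with mid, 0.37 with low and 0.07 with none. Past 2-fold were 60.7% of the 2834 high, 40.1% of the 5772 mid, 20.9% of the 21696 low and 8.12% of the 12101 regions with none, against 22.5% in all. SOX2 gave medians of 2.01, 0.80, 0.28 and 0.04, and the GATA6 antibody 0.19, 0.17, 0.11 and 0.00. Both SOX antibodies thus kept one order across score classes, with SOX2 higher at the top and the 2 antibodies close to each other from mid downwards. The difference between high and none was 1.16 for the SOX17 antibody, 1.03 over input A, 1.24 over input B and 1.00 over the GATA6 antibody, and 0.73 in the averaged columns. Over the GATA6 antibody it was thus smaller than the 1.22 between accessible and closed regions. For SOX2 library A it was 1.55 and for library B 1.99, over the 41889 regions whose SOX2 reads could be split between the libraries. The regions left out of single-library SOX2 values include strong ones, such as those nearest Gclm and Kat2b. Among regions with a match, the decile with the lowest OCT:SOX scores had a median of 0.24 and the decile with the highest 1.22, and the strongest step was in the last deciles, from 0.64 to 0.83 to 1.22.

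**Figure D2:**
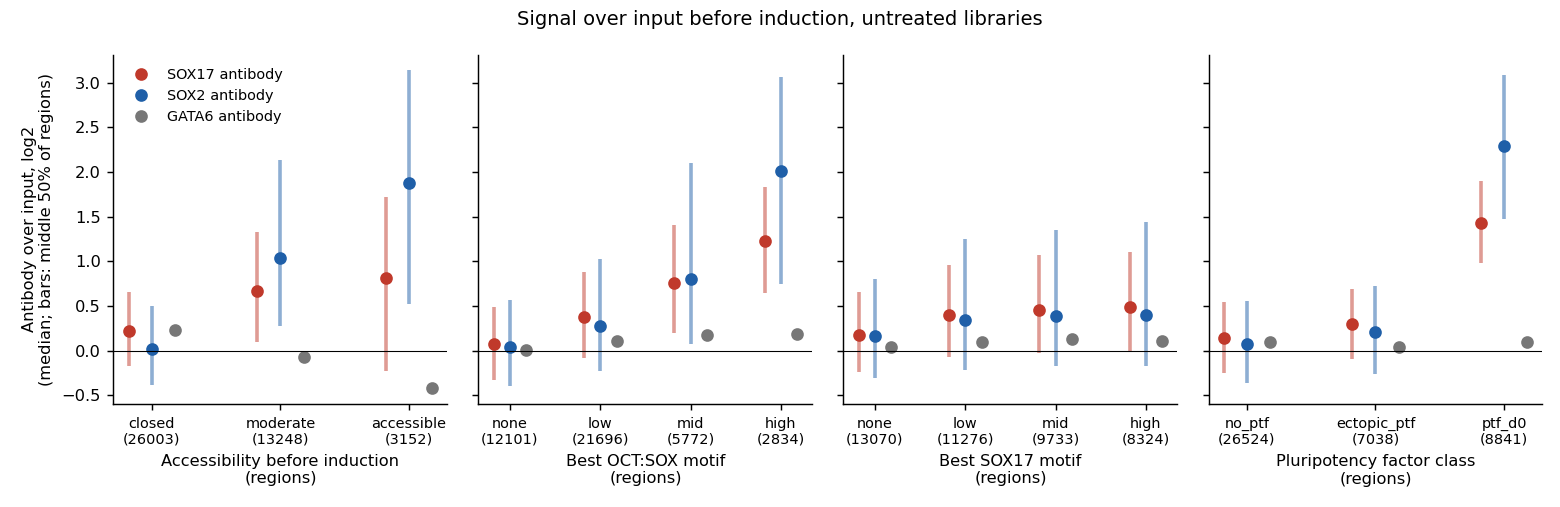
Median log2 ratio to input in untreated libraries for the SOX17 antibody, SOX2 and the GATA6 antibody by accessibility, OCT:SOX motif score, SOX17 motif score and pluripotency-factor class; bars on the SOX17 and SOX2 points span the middle 50% of the regions. The SOX17-antibody medians go from 0.07 to 1.23 across OCT:SOX classes and from 0.18 to 0.49 across SOX17 motif classes.

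The OCT:SOX gradient was present at each level of accessibility and was widest in open chromatin. In accessible regions the SOX17 antibody had a median of 1.75 with a high-score match (416 regions, 84.6% past 2-fold) and -0.21 with none (1047 regions, 14.8%). In moderately accessible regions the medians were 1.48 and 0.18. In closed regions they were 0.75 (1134 regions, 37.3%) and 0.05 (7553 regions, 4.98%). Accessible regions without an OCT:SOX match were therefore below closed regions with one, and also below closed regions without one, by a difference of -0.26 that was 0.28 over input A. SOX2 gave 3.24 against 0.49 in accessible regions, and 0.63 against -0.11 in closed regions. The log2 ratio of SOX17 antibody to SOX2 was thus -0.01 in closed high-score regions and -1.46 in accessible ones. The GATA6 antibody in closed high-score regions was at 0.36, above its level of 0.19 in closed regions with none.

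**Figure D3:**
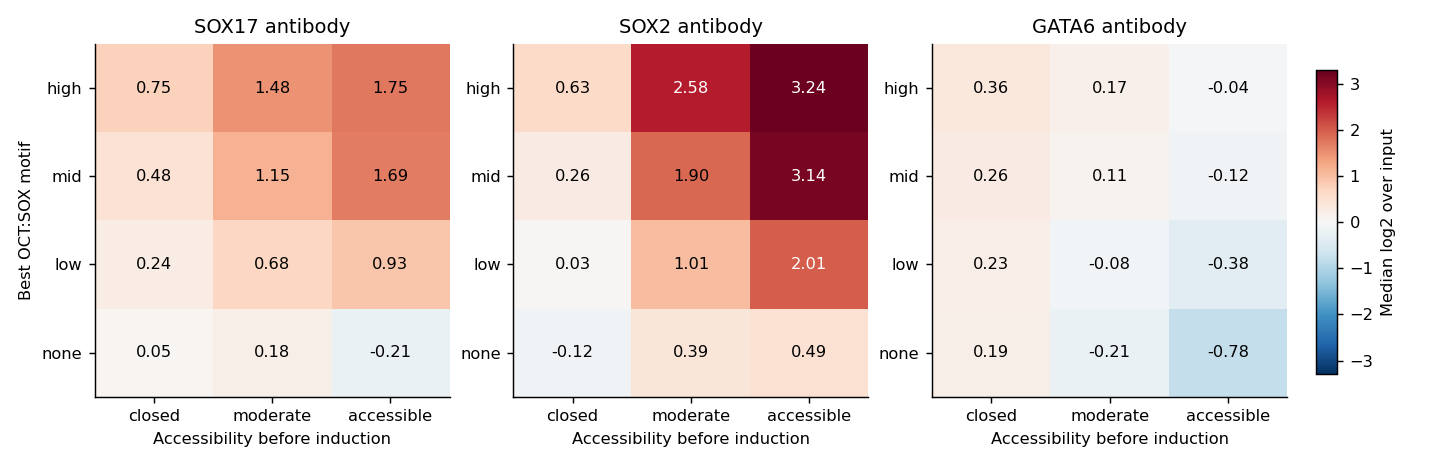
Heat maps of the median log2 ratio to input by OCT:SOX motif score class and accessibility class, one map each for the SOX17 antibody, SOX2 and the GATA6 antibody in untreated cells. The SOX17-antibody map runs from -0.21 (accessible, no motif) to 1.75 (accessible, high score), and the SOX2 map reaches 3.24 in that last field.

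Over all regions, the classes of the SOX17 motif lay closer together in untreated SOX17-antibody signal than those of the OCT:SOX motif. The medians were 0.49 in high, 0.45 in mid, 0.40 in low and 0.18 in none (13070 regions), with 28.6%, 27.4%, 23.9% and 14.0% past 2-fold. SOX2 gave 0.40, 0.39, 0.34 and 0.17. Within accessible regions the medians were 1.51 in high (68.2% past 2-fold) and 0.08 in none (26.4%), and within closed regions 0.26 and 0.12. The median over the 3 accessibility classes of the difference between high and none was 0.64. At day 4 of doxycycline the SOX17-antibody medians ranged from 1.69 in high to 1.01 in low and 0.70 in none. Motif classes differed in width, with medians of 639 bp in high and 420 bp in none. Of the difference of 0.31 between high and none, 0.17 was left among the middle 50% of widths, and in the averaged columns 0.20 went to 0.06 among those widths and to 0.01 as signal per kb without input, but to 0.42 as the median within accessibility classes and 0.39 from summed RPM. Where no OCT:SOX match was present, the SOX17 antibody had 0.14 with a high-score SOX17 motif and -0.01 without any.

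SOX17 and OCT:SOX matches were seldom the same bases. Among the 2834 high-score OCT:SOX regions, 2165 (76.4%) also held a SOX17 motif, and the best matches overlapped in 210 of these (9.70%). The SOX17-antibody median was 1.27 where they overlapped, 1.31 where they lay apart and 1.02 where no SOX17 motif was found. For SOX2 these were 1.97, 2.12 and 1.71. The regions without the SOX17 motif were narrower (492 bp against 675 to 814 bp in the regions holding one). Of the other motifs, the GATA6 motif left the SOX17-antibody median between 0.34 and 0.37 in all 4 classes. SOX2 was not level there, with 0.16 in high, 0.26 in mid, 0.45 in low and 0.60 in none. The median log2 ratio of SOX17 antibody to SOX2 was thus 0.12 in high and -0.44 in none. The ESRRB motif went with a SOX17-antibody median of 0.73 in high and 0.26 in none, against SOX2 at 0.81 and 0.22.

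Regions that the authors had called as bound by a pluripotency factor before induction held most of the signal. That class rests on peaks of OCT4, SOX2 or ESRRB, so its SOX2 values are not independent of it, and whether the peak calls used the same mixture of libraries as the d0 columns was not tested. The 8841 bound regions had a SOX17-antibody median of 1.43 and 73.9% past 2-fold. The 7038 regions bound only after induction had 0.30 and 12.3%, and the 26524 never bound had 0.14 and 8.14%. For SOX2 the medians were 2.29, 0.21 and 0.07. Within bound regions the SOX17-antibody medians were close together at 1.58 in accessible, 1.45 in moderately accessible and 1.25 in closed chromatin, while SOX2 gave 2.94, 2.41 and 1.22. Within never-bound regions accessible chromatin was at -0.36 and closed chromatin at 0.13, the reverse of the order over all regions. This difference of -0.49 was 0.059 over input A, -0.95 over input B and 0.56 over the GATA6 antibody, so its sign depended on the background used. The GATA6 antibody was at -0.80 in accessible and 0.23 in closed never-bound regions. Over the mean of the 2 inputs, accessible never-bound regions thus lay below input for both antibodies, further so for the GATA6 antibody. Over input A all never-bound regions together had a SOX17-antibody median of 0.27, so a level below input was not settled for that antibody.

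Within bound regions the OCT:SOX order remained, at 1.63, 1.53, 1.33 and 1.13 from high to none, and within never-bound regions it ran 0.55, 0.37, 0.18 and 0.01. By histone state, active enhancers had a SOX17-antibody median of 0.99 and primed enhancers 0.74, against SOX2 at 1.71 and 0.82. Unmarked (naive) regions had 0.40 against 0.15 for SOX2, constitutive heterochromatin 0.34 against 0.27, poised enhancers 0.22 against 0.27 and facultative heterochromatin 0.09 against -0.15. Promoters had 0.04 against 0.56, but this value turned with the input, at 0.54 over input A and -0.32 over input B. Whether the SOX17 antibody exceeded input at promoters was therefore not settled by these libraries. The authors' SOX17 peak class did not separate the untreated signal, with 0.37 in regions called for SOX17 at some time and 0.34 in the rest.

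Where the antibodies differed by at least 2-fold, the direction varied with accessibility. The SOX17 antibody was at least 2-fold over SOX2 in 1475 regions (3.48% of all), and SOX2 was at least 2-fold over the SOX17 antibody in 5492 (13%). Of the first group 95.1% were closed, and 54.8% belonged to the GATA6 regions that the authors classed as early, against 28.0% of all regions. Of the second group 11.4% were closed and 70.9% were transient GATA6 regions. In the first group only 492 regions were also at least 2-fold over input for the SOX17 antibody, with 96.1% closed and 74.0% early. The other 983 were not, with 94.6% closed and 45.2% early. In those 983 the median ratio to input was 0.51 for the SOX17 antibody and -0.72 for SOX2, on a median of 21 SOX17-antibody reads. Most of the first group thus reflects SOX2 values below input. In accessible regions SOX2 was the higher antibody by 2-fold in 1784 (56.6%) and the SOX17 antibody in 0, and in closed regions SOX2 in 628 (2.42%) and the SOX17 antibody in 1403 (5.40%). The median log2 ratio of SOX17 antibody to SOX2 was -1.11 in accessible and 0.16 in closed regions. Past 2-fold over input for the SOX17 antibody and not for SOX2 were 1713 regions, of which 87.2% were closed and 29.2% held a high or mid OCT:SOX match, against 45.0% of the regions shared by both.

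Among closed regions the difference followed later GATA6 binding. The SOX17-antibody median was 0.42 in the 7705 early, 0.46 in the 6700 transient and 0.02 in the 11598 late closed regions. SOX2 gave 0.06, 0.15 and -0.12 in library A and 0.08, 0.26 and -0.11 in library B. The GATA6 antibody was level over the 3 clusters at 0.17, 0.22 and 0.24, and ESRRB at 0.01, 0.08 and -0.07. OCT4 did not give one answer: library A had 1.00, 0.71 and 0.05, and library B 0.12, 0.21 and -0.10. OCT4 library A thus stood apart from OCT4 library B in the same closed regions in which the SOX17 antibody stood apart from SOX2. It held 22.3 M reads against 20.3 M for B.

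A wide gap lay in the 1140 early closed regions with a pluripotency-factor peak. There the SOX17-antibody median was 1.24, SOX2 was at 0.61 and 0.79 in libraries A and B, and OCT4 at 1.76 and 0.69. Past 2-fold were 68.4% for the SOX17 antibody and 40.4% for SOX2, and 26.9% had the SOX17 antibody at least 2-fold over SOX2. At 8 h of doxycycline SOX2 in these regions reached 2.24. In the 1475 regions with the SOX17 antibody at least 2-fold over SOX2, OCT4 was at 0.84 in library A and -0.15 in library B. Whether the SOX17-antibody and OCT4 A libraries shared a culture or a handling step is not given by the labels, and its part in these values was not tested.

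**Figure D4:**
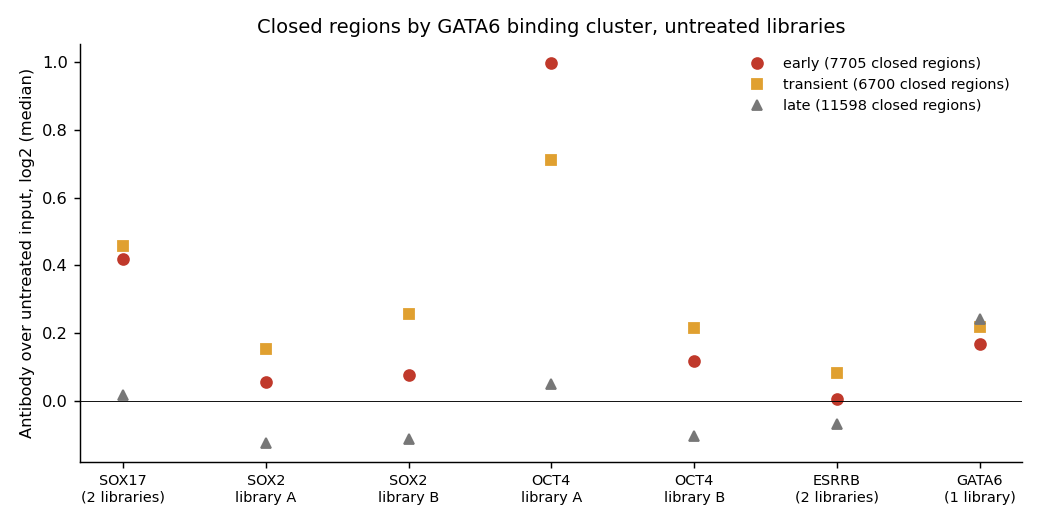
Median log2 ratio to input in closed regions of the early, transient and late GATA6 clusters, one series per untreated library or antibody. The SOX17 antibody is at 0.42, 0.46 and 0.02, OCT4 library A at 1.00, 0.71 and 0.05, and both SOX2 libraries lie between -0.12 and 0.26.

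After doxycycline the high-score OCT:SOX class stayed above the class without a match up to day 1, was close to it at day 2 and lay below it at day 4 and in XEN cells. In this order of time, from untreated cells to day 4, the high-score class had medians of 1.23, 0.70, 0.30, 1.03, 0.96 and 0.45, and 0.19 in XEN cells. The class without a match had 0.07, 0.32, -0.10, 0.66, 0.92 and 1.05, and 0.68 in XEN cells. In single libraries the difference between high and none was 0.27 and 0.48 for 8 h, -0.62 and -0.58 for day 4, and -0.50 and -0.45 for XEN. Regions past 2-fold for the SOX17 antibody numbered 6550 (15.4%) after 8 h and 4264 (10.1%) after 16 h. They then numbered 19451 (45.9%) on day 1, 22152 (52.2%) on day 2 and 22450 (52.9%) on day 4, with 17087 (40.3%) in XEN. By RPM the untreated profile had a correlation over regions of 0.86 with 8 h, 0.67 with day 1, 0.28 with day 4 and 0.20 with XEN cells. Per kb the last 2 were -0.14 and -0.20. The 16 h SOX17-antibody value rested on 1 library, although 2 are labelled. Its median was 0.550 RPM, against 0.544 RPM at 8 h. Median input was 0.548 RPM at 16 h and 0.406 RPM at 8 h, with lowest values of 0.183 and 0.069 RPM. The part of the input in the lower 16 h ratios and count was not tested, so no loss of antibody signal is read from them.

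**Figure D5:**
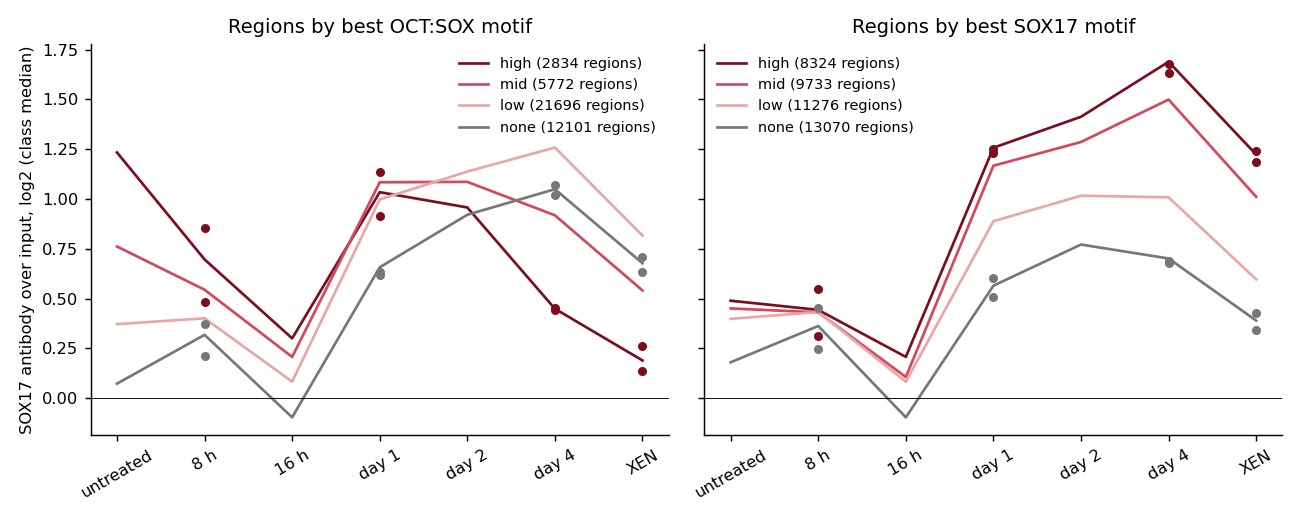
Median SOX17-antibody log2 ratio to the input of the same time, by OCT:SOX motif class and by SOX17 motif class, from untreated cells through 8 h, 16 h and days 1, 2 and 4 to XEN cells; dots are single libraries of the high and none classes where they could be separated. The high-score OCT:SOX class lies at 1.23 untreated and 0.45 at day 4, and the high-score SOX17 class at 0.49 and 1.69.

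The regions with the strongest SOX17-antibody signal were strong SOX2 regions. Ranked on the averaged columns, the top 6 by ratio to input lay nearest Ism2, Gm28710, Stoml1, Zmynd8, 2700062C07Rik and Zbtb44, and all 6 had a pluripotency-factor peak. In untreated libraries the Ism2 region (intron of Sptlc2, chr12:87317710-87318588) had 9.18 RPM of SOX17 antibody, from 373 reads (95% Poisson interval 336 to 413, counting error only). It had 20.0 RPM of SOX2, 0.567 of input and 1.14 of GATA6 antibody. The Stoml1 region (intergenic, chr9:58278903-58279950) had 12.7 RPM against 33.0 of SOX2 and 1.05 of input. The region nearest 2700062C07Rik held 0.832 RPM, from 32 reads (22 to 45). That region was shallow, and the other 5 held at least 318 reads. On the untreated values 5 of the 6 regions in the same ranking were Dcstamp (intron of Rims2, log2 ratio 4.29), Zbtb44 (3.92), Ism2 (3.80), Zfp273 (3.74) and Gm28710 (3.69).

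The regions with the strongest SOX2 signal also had SOX17-antibody signal. On the averaged columns these lay nearest Gclm, Kat2b, Ism2, Gm28710, Cnot2 and Mobp, where the untreated SOX17-antibody ratio was between 3.24 and 3.80. The Gclm region, whose OCT:SOX match was printed above, had 11.2 RPM of SOX17 antibody and 34.1 RPM of SOX2 over 0.956 RPM of input. The Kat2b region had 8.27 and 28.9 RPM over 0.665 RPM. On the untreated values the list was Lrrtm3, Eif4e2, Bnc2, Zfp273, Dnajc3 and Dcstamp, with SOX17-antibody ratios between 3.18 and 4.29. The 4 regions with the highest SOX2 ratio among those under 2-fold for the SOX17 antibody on the averaged columns lay nearest Gm765, Pdzph1, Chic1 and Por. Their untreated SOX17-antibody ratios were 1.79, 1.87, 1.64 and 0.63, so that 3 of the 4 passed 2-fold there. On the untreated values the 4 were Cers4, Bard1, Ctsf and Arsj, with ratios between 0.79 and 0.92 and 13, 32, 64 and 20 SOX17-antibody reads.

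The regions with the most SOX17 antibody relative to SOX2 differed between the averaged and the untreated values. On the averaged columns they lay nearest Dpf1, Cdk12, Esrra, Rbm39, Tmem80 and Dffa, 4 of them in the promoter state, and their untreated ratios to input were 0.60, 1.43, 1.40, 0.64, -0.27 and 0.16. The Esrra region, in a coding exon, held 96.4 RPM of GATA6 antibody before induction, the highest value of that library. On the untreated values they lay nearest Zfand5, Wac, Ccser1, Gfpt2, Fam49a and Fem1c, and all 6 were closed. The Zfand5 region (intergenic, chr19:21337015-21337942) had 1.74 RPM of SOX17 antibody from 69 reads (54 to 87), 0.223 and 0.177 RPM in SOX2 libraries A and B and 0.249 RPM of input. The Gfpt2 region (intergenic, chr11:49780658-49782731) had 4.41 RPM from 178 reads (153 to 206), against 0.936 and 0.885 RPM of SOX2 and 0.971 of input. Neither list shares a region with the other, so these names depend on which libraries enter the d0 value.

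The pluripotency loci were described at 1 region each. For each of 16 loci the region with the highest averaged SOX2 signal within 50 kb of the gene start was taken, and 12 of 16 passed 2-fold for the SOX17 antibody and 13 for SOX2 (11 and 14 in the averaged columns). The background was 22.5% and 27.7% of all regions, but the regions were picked for high SOX2, with which the SOX17 antibody was correlated, so nothing is read from these counts. The median ratio was 1.61 for the SOX17 antibody and 2.87 for SOX2. The highest was at Mycn, a proto-oncogene active in ES cells, with 2.92 (8.10 RPM of SOX17 antibody, 11.6 and 18.1 RPM in SOX2 libraries A and B). Pou5f1, which encodes OCT4, had 2.12, Sox2 1.74 and Nanog, a further core pluripotency factor, 1.47. In the region taken for Lefty1, which encodes a Nodal antagonist, it was 1.02, and the nearest gene start was that of Lefty2. The 4 loci whose region did not pass were Klf4 (-0.20), Fgf4 (0.24), Esrrb (0.53) and Utf1 (0.93). The Fgf4 region lay in an intron of Fgf3 and the Utf1 region in an intron of Kndc1. The regions taken for Klf4, Fgf4 and Esrrb also missed for SOX2, at 0.36, 0.05 and 0.26, and had no pluripotency-factor peak before induction. Only GATA6 binding regions were searched, so absence of either antibody from other sites at these genes is not read from these values.

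The primitive endoderm loci were also described at 1 region each. For each of 15 loci the region with the highest day 4 SOX17-antibody signal within 50 kb was taken, so the day 4 values are fixed by that choice. The untreated median ratio was 0.23, 2 of 15 passed 2-fold for the SOX17 antibody and 0 of 15 for SOX2. With 22.5% and 27.7% of all regions past 2-fold, the SOX17-antibody share was near the background and is no result about these loci. At the Sox17 region whose motif was printed above, the untreated SOX17-antibody value was 1.27 RPM from 50 reads (37 to 66) against 1.07 RPM of input, and the day 4 value was 36.7 RPM. At Pdgfra, a receptor of primitive endoderm, these were 3.21, 2.86 and 30.6 RPM, and at Srgn, a proteoglycan core protein, 0.979, 1.04 and 35.9 RPM. In the averaged columns 3 of 15 passed for the SOX17 antibody and 8 of 15 for SOX2, with 12.1% and 37.9% of all regions.

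The highest untreated SOX17-antibody ratio among these genes was at Lamb1, which encodes a laminin chain of the basement membrane. Its region (intergenic, closed, chr12:31227881-31230421) had 6.61 RPM of SOX17 antibody from 268 reads (237 to 302), 3.08 and 2.12 RPM in SOX2 libraries A and B, 6.998 RPM of OCT4, 1.59 of input and 0.817 of GATA6 antibody. The SOX17-antibody ratio was 1.99 and the SOX2 ratio 0.68. In the averaged columns the SOX2 value there was 23.03 RPM. The other locus past 2-fold was Amn, which encodes a subunit of an endocytic receptor, at 1.06 with 2.59 RPM of SOX17 antibody and 1.19 RPM of input. The Lamb1 region is itself an early closed region with a pluripotency-factor peak, as in the 1140 above. The gene start nearest to it was that of Gm6993.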

How the data were processed

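ChIP-seq reads had been trimmed with cutadapt, aligned to mm10 with Bowtie2, filtered with SAMtools and freed of duplicates by molecular identifiers, per the study's methods. The authors counted reads on each GATA6 region and deposited 1 column per antibody and time in RPM (reads scaled to the library total, mean over libraries, with 1 read per library added), so no value is 0. They also deposited FIMO scores of the best motif match and the classes used here. Cells had been fixed with DSG and formaldehyde. Of the per-sample columns, 18 were not used here. Where a column averaged libraries of different depth, whole reads per library were recovered from the steps of the values. Untreated values were obtained by subtracting the 8 h and 16 h libraries from the d0 mean.

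Ratios are log2((RPM + 0.1)/(input RPM + 0.1)), and 2-fold marks a region as past the threshold. Classes were compared by medians without a test. Python 3.11.15, pandas 2.3.3, NumPy 2.4.6 and SciPy 1.17.1 were used. The subtraction was run on simulated libraries mixed in the numbers found for the SOX17 antibody. Those numbers were given to it, so which libraries enter a d0 mean was not tested there. Reads per region are given with exact 95% Poisson intervals after the added reads were removed. These cover counting error only. Regions were named as the 6 highest by SOX17 antibody over input, by SOX2 over input and by SOX17 antibody over SOX2 (with at least 1 RPM of the antibody in the numerator), the 4 highest by SOX2 among those under 2-fold for the SOX17 antibody, and by 2 lists of loci. The ranking over SOX2 was also limited to regions past 2-fold over input. Nearest genes are the protein-coding genes with the nearest start in the GENCODE basic annotation for mm10, and sequences come from RefSeq GRCm38. The members, classes and lists were chosen with earlier results of these data known. The same rules on untreated values were added after the data had been seen, and 1 region that they name is not reported here. Alternatives covered the pseudocount, the background, filters on input, width and chromosome, the fold threshold and the untreated libraries.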

Additional observations from a re-analysis of the deposited data

Results flagged for a closer look

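3 contrasts of the SOX17 antibody over input pointed one way in both 8 h libraries and the opposite way in both libraries of a later state. None of these differences was tested. The high-score OCT:SOX class minus the class without a match was 0.38 on average at 8 h, -0.60 at day 4 and -0.47 in XEN cells, which are gaps of 0.97 and 0.85. Accessible minus closed regions was 0.63 at 8 h, -0.47 at day 4 and -0.65 in XEN cells, with gaps of 1.09 and 1.28. Regions bound by a pluripotency factor before induction minus regions never bound was 0.60 at 8 h, -0.17 at day 4 and -0.38 in XEN cells, with gaps of 0.77 and 0.98. The untreated SOX17-antibody libraries, which could not be separated, had 1.16, 0.59 and 1.29 for these contrasts.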

How the results depend on the processing

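No paired analysis was possible because each condition is 1 averaged column, in which replicate numbers are lost, and for the same reason no replicate could be left out of the deposited columns. The cause of none of the shifts below was tested. Every alternative in untreated libraries was chosen after seeing the data. The width setting keeps only the middle 50% of widths, and leaving out the early GATA6 cluster drops 28.0% of all regions. Counts under these settings fall with the smaller set, so no loss of signal is read from them. From the 5151 SOX17-antibody regions, the count moved to 2365 with a pseudocount of 0.5 RPM, 9167 over the GATA6 antibody, 2109 in the middle 50% of widths, 11697 at 1.5-fold, 264 at 4-fold, 7737 with the lowest value of each column subtracted, 9560 in untreated libraries, 10953 over input A, 10531 over input B and 10246 over the GATA6 antibody there. From 16056 for SOX2 it moved to 7674 in the middle 50% of widths, 6392 at 4-fold, 5766 in those widths in untreated libraries and 8420 there without the early GATA6 cluster. From 5109 for both it moved to 2348, 8914, 2083, 11439 and 259 under the first 5 of these settings, 7847 in untreated libraries, and 8953, 8496 and 8595 there over input A, input B and the GATA6 antibody.

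For the averaged columns, accessible minus closed (0.71) was 0.75 and 0.54 with pseudocounts of 0.02 and 0.5 RPM, 0.89 over the GATA6 antibody, 0.69 with input of at least 0.3 RPM, 0.80 without the 1% highest input, 0.68 in the middle widths, 0.69 to 0.73 without 1 chromosome, 0.73 from summed RPM, 1.61 per kb without input, 0.088 in never-bound regions, 0.43 for moderate minus closed and 0.66 with the lowest value subtracted. In untreated libraries it was 0.59, and there 0.92 over input A, 0.34 over input B, 0.58 in middle widths, 0.63 without the early cluster and 1.22 over the GATA6 antibody. It changed sign there within never-bound regions, to -0.49 over input and -0.95 over input B, with 0.059 over input A and 0.56 over the GATA6 antibody, and within regions without an OCT:SOX match, to -0.26 and -0.63, with 0.28 and 0.78. High minus none for OCT:SOX (0.73) was, over the same first settings, 0.80, 0.50, 0.62, 0.78, 0.72 and 0.56, then 0.88 from summed RPM, 0.66 per kb, 0.73 as the median within accessibility classes, 0.42 for high or mid minus low or none and 0.75 with the lowest value subtracted. Untreated it was 1.16, with 1.03, 1.24, 1.04, 1.16 and 1.00 over the same 5 settings as above, and 1.29 as the median over accessibility classes. High minus none for the SOX17 motif (0.20) was 0.23, 0.13, 0.21, 0.25 with input of at least 0.3 RPM, 0.058 in middle widths, 0.19 to 0.20 without 1 chromosome, 0.39 from summed RPM, 0.011 per kb, 0.42 within accessibility classes and 0.12 for high or mid minus low or none. Untreated it was 0.31, and 0.38 over input B, 0.17 in middle widths, 0.22 without the early cluster, 0.25 over the GATA6 antibody and 0.64 as the median over accessibility classes. The correlation of the profiles (0.93) was 0.86 per kb, 0.85 as ratios to input, 0.52 with the SOX17 antibody over the GATA6 antibody, 0.88, 0.90 and 0.87 in accessible, moderate and closed regions, 0.88 in untreated libraries and 0.58 or, with the inputs swapped, 0.47 as ratios to different inputs.

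Depth limits the SOX17 antibody to a median of 20 reads a region and leaves it without a replicate spread. The input libraries disagree in accessible chromatin, so values there carry that uncertainty.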
